A study of Mus musculus with 2 samples.

Results

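The replication-dependent histone genes of the mouse stand in clusters and carry symbols that begin with Hist1h, Hist2h, Hist3h or Hist4h. All rows of the deposited count table with such a symbol were taken, 70 of 54532 gene rows. They hold 6 genes for H1, 20 for H2a, 19 for H2b, 12 for H3 and 13 for H4. The Hist1 cluster on chromosome 13 supplied 56 of them, Hist2 on chromosome 3 supplied 10, Hist3 on chromosome 11 supplied 3 and Hist4 on chromosome 6 supplied 1. The annotation classes 3 of the rows, Hist1h2al, Hist1h2aj and Hist3h2bb-ps, as pseudogenes.

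RNA was sequenced from BDC-2.5 effector T cells, CD4 cells with a transgenic T cell receptor from a diabetes-causing clone, in 1 library per group. The 2.5HIP-PLG library came from NOD.scid mice given 1.75 mg of particles intravenously 1 day after they had received activated BDC-2.5 T cells. These particles are made of poly(lactide-co-glycolide) and carry a hybrid insulin peptide that the receptor recognizes. The untreated library came from NOD.scid recipients of the same activated cells without particles. NOD.scid hosts make neither T nor B cells. In both groups CD4-positive cells negative for the GFP reporter of Foxp3 were sorted from spleen and lymph nodes on day 6 after transfer, and the cells of 4 mice were pooled. Each group is thus a single pool, so nothing below has a check by replicates.

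Column totals were 22580671 counts with 2.5HIP-PLG and 26036666 in untreated cells, so that 1 read was worth 0.0443 and 0.0384 CPM, the field's unit for counts scaled to library size. A count of 0 allowed up to 0.133 CPM in the 2.5HIP-PLG library and 0.115 CPM in the untreated one. The CD4 T cell markers Cd4, Cd3e, Cd3g and Trac summed to 104496 and 94596 counts in these libraries. The B cell markers summed to 7 counts with 2.5HIP-PLG and 16 in untreated cells, with Ms4a1 at 0 in both, and the CD8 markers to 304 and 281, nearly all of it Cd8b1 (304 and 272) with Cd8a at 0 and 9. Markers of neutrophils summed to 288 and 83 counts (2 of 2 measured genes higher with 2.5HIP-PLG, Mpo and Elane). The other neutrophil markers had too few counts to be measured, S100a8 with 10 and 8 and S100a9 with 10 and 9. Of mast cells and basophils, 3 of 3 measured genes (Mcpt8, Prss34 and Cpa3) were higher, Mcpt8 with 116 and 22 counts. Markers of macrophages summed to 278 and 203 counts (2 of 4 higher, Csf1r and Lyz2). Cd68, with 107 and 96 counts, and Adgre1, which went the other way with 19 and 33, were not called. Erythroid markers summed to 950.4 and 1136 (0 of 4 called). The part of these cells in the histone values was not tested.

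Replication-dependent histone genes make the bulk of the histone proteins that package new DNA. They are transcribed in S phase, mostly have no introns, and their mRNAs end in a conserved stem-loop bound by the protein SLBP instead of a poly(A) tail. H2A, H2B, H3 and H4 build the nucleosome core, and H1 is the linker histone that binds DNA where it enters and leaves the nucleosome. Histone mRNA is abundant in dividing lymphocytes, but an mRNA kit of the kind used here selects RNA by its poly(A) tail. The counts below are therefore not the cells' total histone mRNA.

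The stem-loop was searched in the GENCODE transcripts of GRCm38 as GGCNNTTTNNAGNGCC, on the transcript strand. It was found in 42 of the 70 members (60.0%), against 68 of 21951 protein-coding genes (0.3%). The protein-coding members are part of the 21951, and the 42 are among the 68. No match says only that the letters are not in the annotated transcript. The sites of the member of each class with the most reads among those that hold the motif, and that of Hist1h2ao, are shown because this is the end of the RNA that sets these genes apart, and capitals mark the match.
Hist1h1c (+ strand, chr13:23739506-23739533): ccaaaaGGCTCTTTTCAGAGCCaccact
Hist1h2ap (- strand, chr13:21833026-21833050): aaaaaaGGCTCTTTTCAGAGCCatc
Hist1h2ao (+ strand, chr13:21810892-21810919): aaaaaaGGCTCTTTTCAGAGCCatccac
Hist1h2bg (+ strand, chr13:23571837-23571864): cccaaaGGCTCTTTTCAGAGCCacccat
Hist1h3b (+ strand, chr13:23752814-23752841): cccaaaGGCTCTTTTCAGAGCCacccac
Hist1h4n (- strand, chr13:21831792-21831819): actaaaGGCCCTTTTCAGGGCCatccaa
In these 6 genes the stem-loop began 28 to 42 bases after the last amino acid codon. The matched letters were the same in all but Hist1h4n, which differs within the stem.

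A poly(A) signal, AATAAA or ATTAAA in the last 50 bases of an annotated transcript, was present in 17 of the 70 members (24.3%), against 17704 of 21951 protein-coding genes (80.7%). Of these 17 members, 12 also had the stem-loop.

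Promoters were matched for 62 members in the RefSeq table of GRCm38.p6, which spans 250 bases before to 50 after each start. The 5-letter motif CCAAT, searched on both strands, was present in 53 of them (85.5%), against 37.4% of 32851 RefSeq promoters. TATAAA was present in 35 (56.5%), against 13.6%. The promoters of the members with the most reads are shown, with each match to CCAAT or its reverse complement in capitals. Neither holds TATAAA.
Hist1h1c (+ strand, chr13:23738557-23738856): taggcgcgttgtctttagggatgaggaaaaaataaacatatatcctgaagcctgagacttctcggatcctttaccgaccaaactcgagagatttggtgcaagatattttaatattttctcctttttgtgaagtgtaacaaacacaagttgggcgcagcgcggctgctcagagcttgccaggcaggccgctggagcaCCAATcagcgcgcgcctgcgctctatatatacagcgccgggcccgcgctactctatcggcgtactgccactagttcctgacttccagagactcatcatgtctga
Hist1h2ap (- strand, chr13:21833426-21833725): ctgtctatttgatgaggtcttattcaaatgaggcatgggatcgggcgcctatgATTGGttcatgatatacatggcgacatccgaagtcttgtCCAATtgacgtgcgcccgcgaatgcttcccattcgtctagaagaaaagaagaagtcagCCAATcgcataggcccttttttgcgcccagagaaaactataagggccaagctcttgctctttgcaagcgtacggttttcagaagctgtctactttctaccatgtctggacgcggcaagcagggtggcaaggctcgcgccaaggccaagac

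Many members are near copies of each other, which bears on how reads could be assigned. Hist1h2ap and Hist1h2ao have the same 390 coding bases, Hist1h2ag differs from them at 3 and Hist1h2ak at 11. The start of the coding sequence is shown, with bases that differ from Hist1h2ap in capitals.
Hist1h2ap (- strand, chr13:21833356-21833475): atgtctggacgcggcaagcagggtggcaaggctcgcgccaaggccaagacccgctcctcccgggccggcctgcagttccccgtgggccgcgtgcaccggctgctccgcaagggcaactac
Hist1h2ao (+ strand, chr13:21810467-21810586): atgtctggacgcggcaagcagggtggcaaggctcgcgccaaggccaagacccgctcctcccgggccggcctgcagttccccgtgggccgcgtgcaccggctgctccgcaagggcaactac
Hist1h2ag (- strand, chr13:22042808-22042927): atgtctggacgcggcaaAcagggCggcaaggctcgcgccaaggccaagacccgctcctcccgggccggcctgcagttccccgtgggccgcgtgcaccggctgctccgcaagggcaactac
Hist1h2ak (- strand, chr13:21753708-21753827): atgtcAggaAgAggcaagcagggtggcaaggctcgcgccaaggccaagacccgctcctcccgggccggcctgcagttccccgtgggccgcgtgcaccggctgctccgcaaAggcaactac
Over the whole transcripts, 93.5% of the distinct 50-base runs of Hist1h2ao also occur in Hist1h2ap. The median member shared 49.6% of its 50-base runs with some other gene, and 34 members shared 50% or more. Hist2h2aa2 and Hist2h3c1 shared 100%, while Hist1h1a, Hist1h1b, Hist1h1t and Hist2h2be shared 0.

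The deposited values are expected counts, in which a read that fits several genes is divided among them, so copies give values that are not whole. Of the 65 members with any count, 57 had a value that was not whole in at least 1 library. Only 6 of the 52 members whose counts summed to 20 or more were whole in both libraries (11.5%), against 63.3% of all 13902 such genes. The single values of most members are therefore uncertain, and the sums over a class do not depend on how reads were divided within it.

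Summed over all 70 members, the histone genes had 1532 counts with 2.5HIP-PLG and 2947 in untreated cells, which is 67.8 and 113 CPM. The ratio of 2.5HIP-PLG over untreated, each scaled by its column total, was 0.598 (exact 95% interval 0.562 to 0.637). Hist1h1c and Hist1h2ap supplied 21.5% of these counts with 2.5HIP-PLG and 33.8% in untreated cells, and without both the ratio was 0.710 (0.660 to 0.763). Intervals here and below are for counting error only, and with 1 library per group no test was possible. In bulk RNA, fewer cells in S phase and less histone RNA per cell cannot be told apart.

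Every class had a summed ratio below 1 with an interval that excluded 1. H1 had 278 and 748 counts in the 2.5HIP-PLG and untreated libraries (ratio 0.429, 0.372 to 0.492). H2a had 466 and 885 counts (0.606, 0.540 to 0.678), and H3 had 248 and 446 (0.637, 0.543 to 0.746). H1, the linker class, thus stood below each of the 4 core classes, with an interval that overlapped none of theirs, a separation that rests on Hist1h1c. H2b had 304 and 515 counts (0.683, 0.591 to 0.789). H4 had 237 and 353 (0.768, 0.648 to 0.908), the class nearest to 1, although H2a without Hist1h2ap (0.812) was nearer. The intervals of the 4 core classes overlapped one another. The ratios of H2b and H4 fell short of the 1.5-fold size used for single genes.

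**Figure D1:**
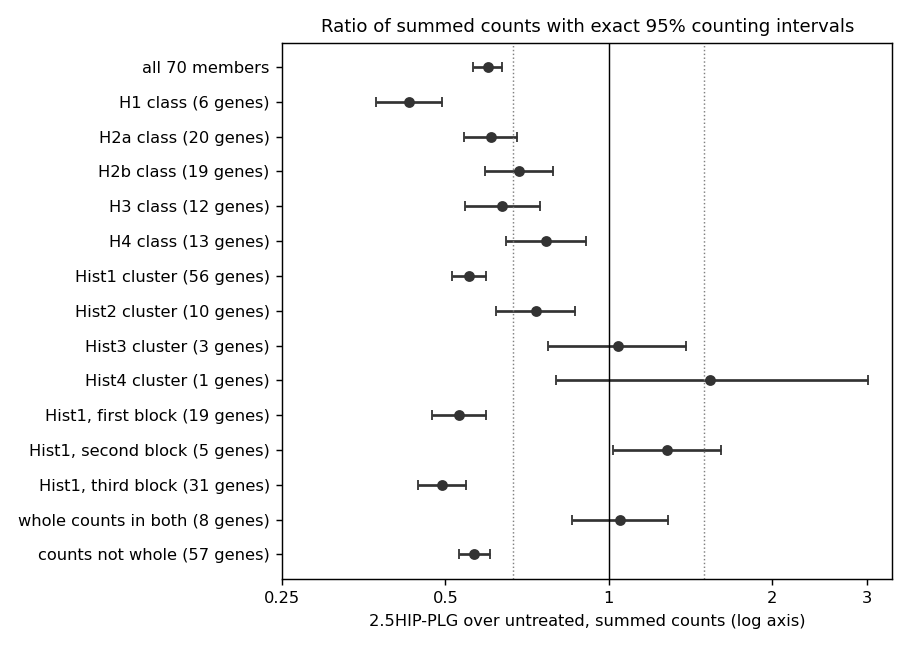
Ratio of summed counts, 2.5HIP-PLG over untreated, on a log axis, for all members, the 5 classes, the 4 clusters, the 3 blocks of Hist1 and members with and without whole counts. Points are ratios, bars exact 95% counting intervals, and dotted lines 1.5-fold either way; the H1 class lies lowest of the classes at 0.429 and the second Hist1 block lies above 1 at 1.28, or at 0.924 without Hist1h2ag (not drawn).

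A gene is called higher when its ratio is at least 1.5 and lower when it is at most the inverse of 1.5, with an interval that excludes 1, and it counts as measured when its 2 counts sum to at least 20. Of the 70 members, 5 had no count in either library (Hist1h1t, Hist1h2aa, Hist1h2ba, Hist1h2aj and Hist2h3c1), 13 had a sum under 20, and 52 were measured. Hist1h1t, Hist1h2aa and Hist1h2ba are known as histone genes of the testis. Among the measured members 17 were lower (32.7%), 2 were higher (3.85%) and 33 were neither, against 9.7% lower and 5.15% higher over all 13902 measured genes. Most members have few reads, and among the 3792 measured genes with a sum from 20 to under 200 the share of lower calls was 21.9% and that of higher calls 9.49%. In the same range 15 of 50 members were lower (30.0%) and 2 higher (4.00%), so the share of lower calls is nearer to the background than the first comparison shows. The median log2 ratio of the measured members was -0.65, against -0.01 for all measured genes and -0.19 for those with a sum from 20 to under 200. Of the 52, 38 had a ratio below 1, as had 7163 of 13902 and 2286 of 3792 in the 2 backgrounds. The 13 members under the minimum summed to 30.4 counts with 2.5HIP-PLG and 86.5 in untreated cells, and 11 of them were scaled lower with 2.5HIP-PLG.

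**Figure D2:**
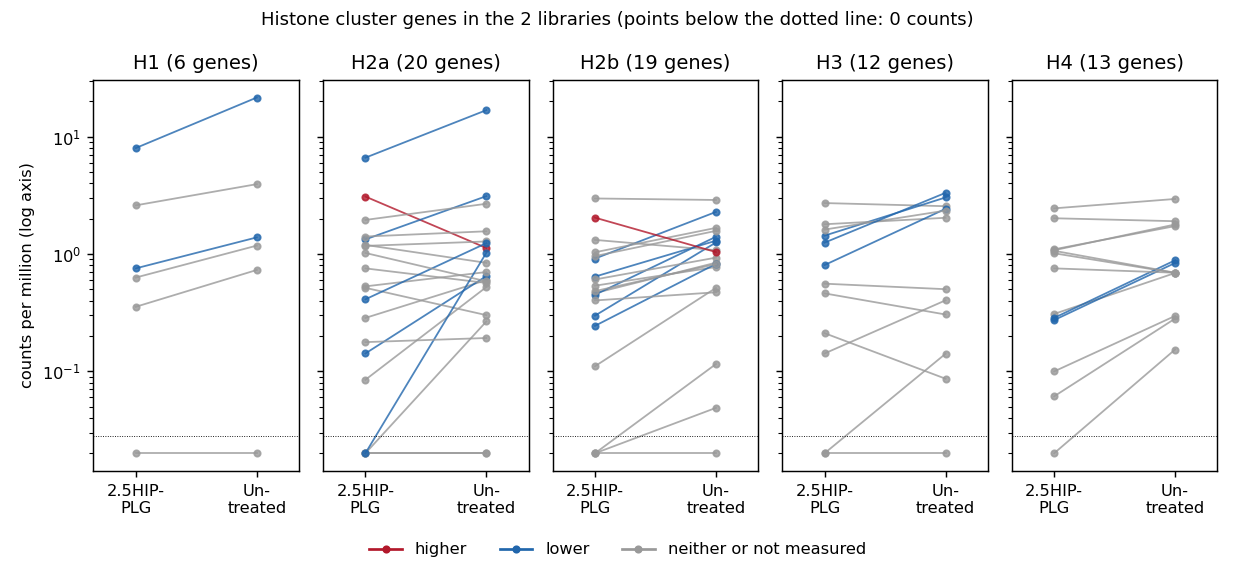
CPM of each of the 70 members in the 2.5HIP-PLG library (left of each panel) and the untreated library (right), on a log axis, with lines joining a gene and 1 panel per class. Blue lines are genes called lower, red lines genes called higher; most lines rise toward the untreated side, and Hist1h2ao is the called gene with 0 counts on the 2.5HIP-PLG side.

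**Figure D3:**
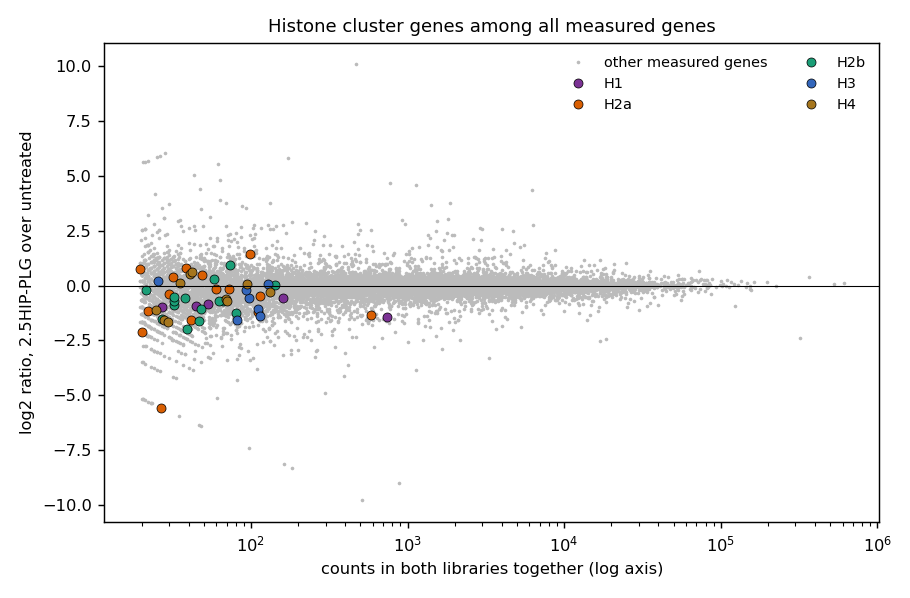
Log2 ratio, 2.5HIP-PLG over untreated, against the counts of both libraries together (log axis) for all 13902 measured genes, with the 52 measured histone genes coloured by class. All but Hist1h1c and Hist1h2ap lie below a sum of 200 counts, where the ratios of all genes spread widely.

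Among the H1 genes, Hist1h1c had 180 counts with 2.5HIP-PLG and 559.8 in untreated cells, a ratio of 0.371 (0.312 to 0.439; chr13:23738808-23740367). It had the most reads of all members, and only 8.5% of its 50-base runs occur in another gene. Scaled by transcript length, its level was 5.11 CPM per kilobase with 2.5HIP-PLG and 13.8 in untreated cells. Hist1h1b, which shares no 50-base run and has whole counts, had 17 and 36 counts (0.544, 0.287 to 0.995), a call that rests on an upper bound close to 1. Hist1h1a, likewise unique, had 8 and 19 counts (0.485, 0.184 to 1.16) and was neither. Hist1h1e had 58.5 and 102 counts (0.667, 0.476 to 0.928), just short of the size rule, and it overlaps Hist1h2be on the same strand. Hist1h1d had 14.2 and 30.6 counts (0.521, 0.256 to 1.01). All 5 measured H1 genes thus had a ratio below 1, and without Hist1h1c the class had 97.7 and 188 counts (0.601, 0.466 to 0.771), with an interval that overlapped those of the core classes.

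The H2a class was led by Hist1h2ap, at 149 counts with 2.5HIP-PLG and 437 in untreated cells (0.393, 0.324 to 0.475; chr13:21833026-21833507). Its level per length was the highest of all members, 13.7 CPM per kilobase with 2.5HIP-PLG and 34.8 in untreated cells. Its copy Hist1h2ao had 0 and 26.7 counts, which puts the 95% upper limit of its ratio at 0.169. Hist1h2ag went the other way, with 69.6 and 29.2 counts (2.78, 1.78 to 4.45), the highest ratio of any measured member. Because these 3 genes share most of their sequence, as shown above, they were also summed, to 219 and 493 counts (0.512, 0.435 to 0.602). They share sequence with other H2a genes too, so reads may also have been divided beyond these 3. The 12 H2a genes of Hist1 joined by shared sequence had 307 and 627 counts (0.564, 0.490 to 0.647). Hist2h2aa2, all of whose 50-base runs occur in other genes, had 9.26 and 32.2 counts (0.324, 0.136 to 0.695), while its copy Hist2h2aa1 had 31.8 and 40.6 (0.900, 0.549 to 1.46). Together the pair had 41.0 and 72.7 counts (0.648, 0.431 to 0.962). The pseudogene Hist1h2al, which lies apart from the cluster (chr13:51202727-51203065), had 30.0 and 80.9 counts (0.427, 0.271 to 0.657). Of its 50-base runs 65.5% occur in each gene of that pair, so its own value is uncertain. Summed with the pair it had 71.0 and 154 counts (0.532, 0.396 to 0.709). Hist1h2ac was lower on few reads, 3.20 and 16.9 counts (0.203, 0.0382 to 0.703), and Hist3h2a, the H2a gene of the Hist3 cluster, had 44.0 and 69.6 (0.725, 0.485 to 1.07). The 9 measured H2a genes that were neither had ratios of 0.432 to 1.77, and without Hist1h2ap the class stood at 0.812 (0.701 to 0.940).

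In the H2b class 5 of 15 measured genes were lower (33.3%) and 1 was higher (6.67%). The shares among all measured genes with a sum from 20 to under 200 were 21.9% and 9.49%. The lower genes were Hist1h2bg, at 20.6 counts with 2.5HIP-PLG and 59.3 in untreated cells (0.410, 0.237 to 0.686), Hist1h2bh with 6.72 and 32.6 (0.245, 0.0913 to 0.562), Hist1h2bk with 10.1 and 36.4 (0.320, 0.142 to 0.659), Hist1h2bc with 14.5 and 33.7 (0.475, 0.235 to 0.908) and Hist1h2bn with 5.50 and 21.4 (0.329, 0.109 to 0.844). All 5 lie in Hist1 and none had whole counts. Hist2h2be, the H2b gene with the most reads and no shared 50-base run, had 67 and 75 counts (1.03, 0.730 to 1.45; chr3:96221119-96223738). Hist3h2ba was higher, with 46 and 27 counts (1.96, 1.20 to 3.29; chr11:58948920-58949533), again as whole numbers. Both of these genes carry a poly(A) signal. Hist1h2bq and Hist1h2br, near copies of each other that carry one too, together had 34.2 and 64.7 counts (0.613, 0.392 to 0.943).

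Of the 7 measured H3 genes 3 were lower (42.9%) and 0 higher, against 21.9% lower among all measured genes with a sum from 20 to under 200. Hist2h3c2 had 28.2 counts with 2.5HIP-PLG and 86.3 in untreated cells (0.375, 0.236 to 0.581), Hist1h3e 32.3 and 78.8 (0.467, 0.300 to 0.713) and Hist1h3i 18.1 and 63.0 (0.329, 0.184 to 0.564). Hist1h3b, the H3 gene with the most reads, had 61.2 and 66.4 counts (1.07, 0.740 to 1.53), and its relative Hist1h3h, which was also neither, had 40.4 and 52.9 (0.870, 0.562 to 1.34). No H3 gene with reads had whole counts, and summed over the 9 H3 genes of Hist1, which share much of their sequence, the ratio was 0.704 (0.582 to 0.850).

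In the H4 class 2 of 10 measured genes were lower and 0 higher. That share of lower calls did not exceed the 21.9% among all measured genes with a sum from 20 to under 200. Hist1h4n, with the most reads of the class, had 55.2 counts with 2.5HIP-PLG and 76.5 in untreated cells (0.824, 0.572 to 1.18), and Hist1h4i had 45.4 and 49.5 (1.06, 0.691 to 1.62). The 2 lower genes rested on few reads, Hist1h4j with 6.43 and 23.0 counts (0.301, 0.100 to 0.760) and Hist1h4c with 6.16 and 21.8 (0.314, 0.104 to 0.800). The 2 H4 genes with whole counts lie outside Hist1. Hist2h4 had 17 and 18 counts (1.09, 0.527 to 2.24), and Hist4h4 had 24 and 18 (1.54, 0.800 to 3.01; chr6:136801553-136804415), a ratio whose interval includes 1.

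**Figure D4:**
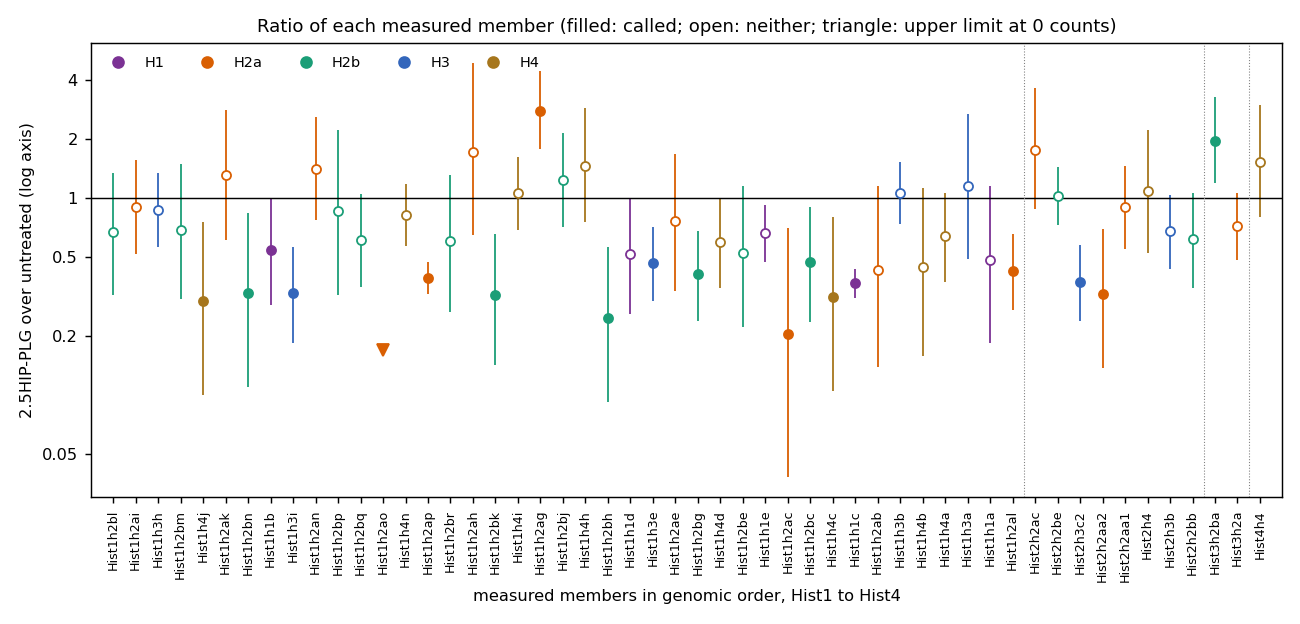
Ratio of each of the 52 measured members, 2.5HIP-PLG over untreated on a log axis, in genomic order within Hist1, Hist2, Hist3 and Hist4 (dotted lines part the clusters), coloured by class. Bars are exact 95% counting intervals, filled points are called, open points are neither, and the triangle is the upper limit for Hist1h2ao; 38 of 52 lie below 1 and the 2 filled points above 1 are Hist1h2ag and Hist3h2ba.

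By cluster, Hist1 had 1180 counts with 2.5HIP-PLG and 2455 in untreated cells (0.553, 0.515 to 0.593), and 15 of its 41 measured genes were lower against 1 higher. Hist2 had 238 and 374 counts (0.734, 0.621 to 0.866), with 2 of 8 lower. Among all measured genes with a sum from 20 to under 200, 21.9% were lower and 9.49% higher. The share of lower calls in Hist2 was close to that background. The share in Hist1 was above it, also at 13 of 39 without Hist1h1c and Hist1h2ap. Hist3 had 89.96 and 99.62 counts (1.04, 0.772 to 1.39), and Hist4 holds Hist4h4 alone. Both members with the most reads lie in Hist1, and without Hist1h1c and Hist1h2ap it had 850.5 and 1458 counts (0.671, 0.616 to 0.731), an interval that overlaps that of Hist2. The interval of Hist3 included 1.

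Within Hist1 the genes fall into 3 blocks on chromosome 13 (GRCm38), and the middle one had a ratio above 1 that rested on Hist1h2ag. The block from 21715763 to 21837530, with 19 members, had 432 and 939 counts (0.530, 0.472 to 0.594). The block from 22035164 to 22043676, with 5 members, had 166 and 151 counts (1.28, 1.02 to 1.61), and without Hist1h2ag the other 4 had 96.9 and 122 (0.924, 0.700 to 1.22). The block from 23531050 to 23934851, with 31 members, had 551 and 1284 counts (0.493, 0.445 to 0.545). The middle block holds Hist1h2ag and its members Hist1h2ah, Hist1h2bj and Hist1h4i, whose ratios were 1.73, 1.24 and 1.06, beside the lower Hist1h2bk. Its H2a and H2b genes share sequence with copies in the other blocks, and the part of that in its ratio was not tested. The remaining Hist1 row, the pseudogene Hist1h2al, lies outside these blocks.

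Most H2a and H2b genes of the clusters stand head to head with their starts close together, an arrangement that lets both share a promoter. There were 12 such pairs, with 176 to 306 bases between the annotated starts. In 6 pairs both genes had a ratio below 1, in 2 both were above 1, in 3 they lay on opposite sides of 1, and 1 pair (Hist1h2ba and Hist1h2aa) had no counts. The 6 include Hist1h2bf and Hist1h2ad, both under the count minimum. Hist1h2ac and Hist1h2bc were both called lower, and Hist1h2ag and Hist1h2bj were both above 1 (2.78 and 1.24). Hist1h2ak and Hist1h2bn lay on opposite sides with overlapping intervals, at 1.31 (0.614 to 2.81) and 0.329 (0.109 to 0.844).

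Members with whole counts stood nearer to 1 than the others. The 8 members that had counts, all of them whole, summed to 183 counts with 2.5HIP-PLG and 201 in untreated cells (1.05, 0.855 to 1.29), while the 57 members with values that were not whole summed to 1349 and 2746 (0.565, 0.529 to 0.604). The 8 are not a sample of the rest. Of them, 2 lie in Hist1, Hist1h1a and Hist1h1b, and summed to 25 and 55 counts (0.524, 0.313 to 0.855), whereas the other 6, in Hist2, Hist3 and Hist4, summed to 158 and 146 (1.25, 0.990 to 1.57). In H2b and H4 the members with whole counts had summed ratios of 1.24 and 1.31, on the other side of 1 from their classes. Members with under 10% of their 50-base runs shared had a summed ratio of 0.498 (0.436 to 0.568), those with 10 to 50% had 0.701 (0.620 to 0.792), and those with 50% or more had 0.602 (0.551 to 0.657). The first value rests on Hist1h1c, and without it the other 8 members had 147 and 197 counts (0.860, 0.690 to 1.07). Without Hist1h2ap the last group stood at 0.688 (0.622 to 0.760).

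The 17 members with an annotated poly(A) signal summed to 543 counts with 2.5HIP-PLG and 1020 in untreated cells (0.613, 0.552 to 0.681), close to the 53 members without one, at 989 and 1927 (0.591, 0.546 to 0.638). Hist1h1c supplied most of the untreated counts of the first group, and the other 16 genes had 363 and 460.0 counts (0.909, 0.790 to 1.05). Of those 16, the 10 in Hist1 had 165 and 252 counts (0.753, 0.615 to 0.921). Among the 14 members outside Hist1, the 6 with a signal had 198 and 208 counts (1.10, 0.899 to 1.34) and the 8 without had 154 and 284 (0.625, 0.511 to 0.763). These groupings were made after the values had been seen and are a description.

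Of 6 RNAs known to lack a poly(A) tail, chosen after their values were seen, all 6 were called lower. Whole annotated classes varied, with 3 of 7 measured miscellaneous RNA genes lower and 1 higher, and 1 of 3 small Cajal body RNA genes lower. In the annotated class snRNA 2 of 2 measured genes were lower. Among 297 measured lincRNA genes 26.3% were lower, and among 281 genes of the provisional class TEC 40.2%. The share among 11805 measured protein-coding genes was 7.89%. The ribosomal RNA gene CT010467.1 had 45597 counts with 2.5HIP-PLG and 276236 in untreated cells (0.190, 0.188 to 0.192), which is 0.202% and 1.06% of all counts. Rn7sk, the small nuclear RNA that holds back transcription elongation, had 270.4 and 3047 counts (0.102, 0.0899 to 0.116). Rmrp, the RNA of the RNase MRP enzyme, had 17.0 and 115 (0.170, 0.0960 to 0.285), and Rpph1, the RNA of RNase P, had 3.59 and 51.3 (0.0904, 0.0237 to 0.246). The signal recognition particle RNA genes Rn7s1 and Rn7s2, between which shared reads may have been split, had ratios of 0.334 (0.272 to 0.407) and 0.167 (0.137 to 0.201). The part that retention of RNA without a tail had in the histone ratios was not tested.

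The histone genes listed as replication-independent were near 1. Of 11 such genes 10 were measured, 0 were called in either direction, and their median log2 ratio was 0.01, with ratios from 0.705 to 1.29. The background for this list and those below is all 13902 measured genes, with 5.15% higher and 9.7% lower. H3f3b and H3f3a, which encode the replacement histone H3.3, had 12723 and 8967 counts in the 2.5HIP-PLG library against 15060 and 9024 in the untreated library, ratios of 0.974 (0.951 to 0.997) and 1.15 (1.11 to 1.18). H2afy, which encodes the macroH2A variant, had 7478 and 10105 counts (0.853, 0.828 to 0.879). The lowest ratio of the list was that of H1fx, on 11 and 18 counts (0.301 to 1.58). The other 9 each had more counts than any cluster gene in either library.

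The genes that make and process histone mRNA were not called either. Of 20 genes for histone mRNA ends and cluster transcription, 0 passed in either direction; the median log2 ratio was 0.04 and the ratios ran between 0.720 and 1.17. The 3 with the most reads were Srrt, a partner of the nuclear cap-binding complex (0.932, 0.903 to 0.961), Upf1, a helicase of histone mRNA decay (0.966, 0.929 to 1.00), and Tut7, a terminal uridylyltransferase (0.970, 0.931 to 1.01). Slbp, the stem-loop binding protein, had 2979 counts with 2.5HIP-PLG and 3130 in untreated cells (1.10, 1.04 to 1.15), and Npat, the coactivator of the clusters, had 999 and 985 (1.17, 1.07 to 1.28). On the other side of 1 lay Lsm11, with 269 and 431 counts (0.720, 0.616 to 0.840), and Pou2f1, with 558 and 854 (0.753, 0.676 to 0.839). In the list 12 of 20 genes had a ratio above 1. Slbp, Npat, Lsm11 and Pou2f1 were singled out after their values were seen.

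The other genes of DNA synthesis lay slightly on the opposite side of 1 from the cluster histones. Of 25 S phase genes, Slbp among them, 22 had a ratio above 1, 1 was called, upward, and the list's median log2 ratio was 0.25. Of all 13902 measured genes 5.15% were higher and 9.7% lower, and 7163 had a ratio below 1. The S phase gene called was Mcm6, a subunit of the replicative helicase (1.54, 1.49 to 1.59). Next in reads were Pcna, the sliding clamp of DNA polymerase (1.11, 1.07 to 1.15), and Mcm5 (1.19, 1.14 to 1.23). Mcm2 is in both this list and that of the chaperones. The 18 histone chaperones and acetylation factors had 0 calls, a median of 0.19 and 14 ratios above 1, led in reads by Nap1l1 (interval 1.26 to 1.34), Ssrp1 (1.17, 1.13 to 1.21) and Atrx (0.876, 0.846 to 0.907). The 12 genes of the poly(A) tail machinery had 0 calls and a median of 0.02, led by Pabpc1 (0.994, 0.982 to 1.01), Papola (1.05, 1.02 to 1.09) and Fip1l1 (1.07, 1.02 to 1.12).

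**Figure D5:**
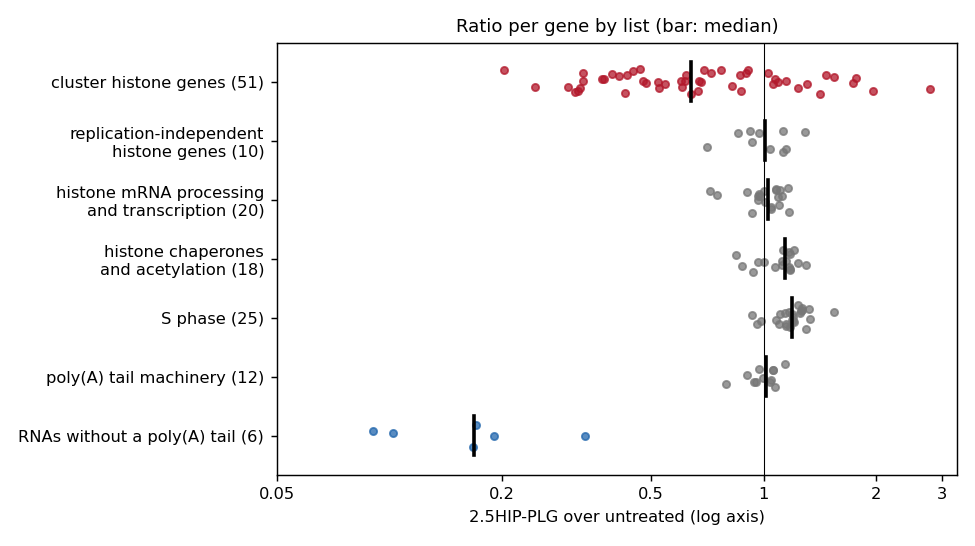
Ratio per gene, 2.5HIP-PLG over untreated on a log axis, for the measured cluster histone genes (red; Hist1h2ao, with 0 counts, is left out), the 5 comparison lists (grey) and 6 RNAs without a poly(A) tail (blue), with the number of genes beside each name and the median as a bar. The cluster histones spread from 0.203 to 2.78 around a median below 1, the grey lists gather near 1, and all 6 blue points, chosen after their values were seen, lie at 0.334 or lower.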

How the data were processed

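RNA was sequenced from 2 pools of sorted T cells, 1 per group, each from 4 mice. Per the labels' protocols, RNA came from an RNeasy Plus Mini Kit and was made into libraries with NuGen's Universal Plus mRNA kit. Groups follow the treatment labels, as the injection is described in the protocols of both. The submitters' processing notes name STAR, RSEM 1.3.1 and GRCm38. Not given in the sources used here were strand use, annotation, filters and read length. The deposited values are expected counts per gene, and 11.1% of rows with 2.5HIP-PLG and 11.8% in untreated cells are not whole. Without a stated strand setting, the 26 members that overlap another annotated gene are uncertain.

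Counts were rounded and scaled by column total (22580671 for 2.5HIP-PLG, 26036666 for untreated). Ratios carry exact conditional binomial (Clopper-Pearson) 95% intervals from scipy 1.17.1 in Python 3.11.15, with numpy 2.4.6 and pandas 2.3.3. As the labels describe no molecular identifiers, intervals and floors hold counting error alone. Class ratios were computed on summed rounded counts. For log2 ratios 0.5 counts were added. Annotation, transcripts and gene types came from GENCODE M21, which holds all 70 member IDs, and promoters from RefSeq (GRCm38.p6). Members were joined to families when 2 shared at least 50% of the smaller gene's 50-base runs. That length was chosen here. In the comparison lists 3 symbols were matched through RefSeq synonyms. The calculation was tested on simulated counts. Alternatives were TMM (edgeR 4.0.16) and DESeq2 1.42.0 size factors in R 4.3.3, upper quartile scaling, other count minimums, a ratio of 2, a 99% interval, and subsets of members; figures used matplotlib 3.10.9.

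The members and lists were chosen with earlier results of these data known. Named are the called members, the 2 members of each class with the most reads, members with 0 in 1 library and at least 10 counts in the other, and the 3 genes with the most reads and any called gene of each list. Other members and genes named with values, such as those with whole counts, near copies and the RNAs without a poly(A) tail, were chosen after their values were seen.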

Additional observations from a re-analysis of the deposited data

How the results depend on the processing

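No paired analysis was possible because each group has 1 library. The ratio of all members stayed between 0.591 and 0.604 under TMM, DESeq2 size factors, upper quartile scaling, unrounded counts, a total without the ribosomal RNA gene and removal of pseudogenes, and no scaling moved any class ratio outside its interval. Restriction to members whole in both libraries turned the ratio round for all members (1.05), H2b (1.24) and H4 (1.31), and gave 0.524 for H1 and 0.922 for H2a; it leaves 8 genes with counts, and none of H3, so that class has no such value. Without the member with the most reads the ratio was 0.652 for all members, 0.601 for H1, 0.812 for H2a, 0.624 for H2b, 0.563 for H3 and 0.752 for H4, and without both Hist1h1c and Hist1h2ap it was 0.710 (0.660 to 0.763) for all members. Against 2 higher and 17 lower of 52 measured members, there were 1 and 1 of the 6 measured members with whole counts. A minimum sum of 100 gave 0 and 5. It also leaves fewer members measured, so these calls are not out of the same 52. In an alternative chosen after seeing the data, members of shared sequence were summed, which gave 1 and 8 of 24 measured units. A ratio of 2 left 1 higher. Over all genes, against 716 higher and 1348 lower of 13902 measured, the minimum sum of 100 gave 473 and 748 of fewer measured genes. A ratio of 2 gave 387 and 808. Summing members that encode the same protein was not run, since no protein table was used here. Low counts limit most members, 50 of the 52 measured having a sum under 200.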
